A study of Equus caballus with 15 samples.

Results

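The 52 genes described here encode ligands, receptors, extracellular regulators, SMAD proteins, nuclear repressors and target genes of TGF-beta and BMP signalling in the horse. They were picked by gene symbol from the count table of the series, where each stands on 1 row among 30297 genes. Of the 52, 49 had enough reads to be tested, and TGFB1, BMP7 and GDF6 did not. The study took the superficial digital flexor muscle of a front limb, with its tendon still attached, from 5 euthanized horses, numbered 14, 16, 17, 18 and 20. These were 4 mares and 1 gelding aged 5 to 7 years. A punch of 4 mm was frozen and cryosectioned, and RNA was sequenced from 3 parts of about 200 micrometres each. The groups are thus 5 sections through the myotendinous junction (MTJ), where muscle fibres insert into tendon, 5 tendon sections and 5 muscle sections, 1 of each from every horse. No horse received a treatment in the labels, and a training label contradicts itself for horse 14, so training was not compared. An MTJ section holds muscle and tendon on either side of the junction by design, and every section holds all cell types of its tissue.

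TGF-beta, activin and BMP ligands are secreted proteins that bring type I and type II serine/threonine kinase receptors together. The receptors phosphorylate SMAD proteins, SMAD2 and SMAD3 on the TGF-beta and activin side and SMAD1, SMAD5 and SMAD9 on the BMP side, which enter the nucleus with SMAD4. TGF-beta is stored in the matrix in a latent form bound to LTBP proteins, and it is known as a main inducer of tendon cell fate and of collagen production. BMP signalling switches on the ID genes and acts in bone, cartilage and the muscle attachment, while myostatin and activins, members of the same family, limit muscle growth.

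Libraries held 15304218 to 19295339 counts, and levels are given as CPM, counts relative to the library total after scaling with TMM factors, which ran from 0.671 to 1.88. Levels of different genes are not compared, because no length-corrected values were used. The section labels were checked with marker genes. All 12 muscle fibre markers were lower in tendon than in muscle and 10 of 11 tested tenocyte markers were higher. However, all 12 muscle fibre markers and 7 of the 12 tenocyte markers are also reference genes that the authors chose on these sections. The direction of those markers is thus not an independent check of the labels. Of these markers, SCX had too few reads to be tested, and TNMD stood at 1.60 ± 1.36 CPM in tendon sections and 0.154 ± 0.302 CPM in muscle sections (SD, n = 5 each). Muscle reference genes of the authors stood in the tendon sections at 13.7, 17.6, 11.7, 0.332 and 2.57% of their muscle level in horses 14, 16, 17, 18 and 20, so their level was higher in 3 tendon sections than in those of horses 18 and 20. In the MTJ sections the same genes stood at 77.6 ± 5.66% of their muscle level and the authors' tendon reference genes at 15.9 ± 5.16% of their tendon level (SD, n = 5). In whole sections, fewer cells of a type and less RNA per cell cannot be told apart. Per-section values below follow the order of horses 14, 16, 17, 18 and 20.

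Most of the pathway was more abundant in tendon than in muscle. Of the 49 genes tested, 32 were higher and 4 lower in tendon (edgeR's quasi-likelihood test, in which horse was a block, with an adjusted p under 0.05). Of all 15343 genes tested, 38.8% were higher, 34.6% lower and 73.4% called either way. The median log2 fold change of tendon over muscle was 1.09 for the 49 genes and 0.13 for all genes. The 5 tendon sections lay above the 5 muscle sections without overlap for 25 of the 49 genes and below for 1, against 26.6% and 25.1% of all genes. Between MTJ and muscle, 10 of the 49 were higher in the MTJ and 0 lower. With DESeq2 0 were lower as well, and at an unadjusted p under 0.05 INHBB was the only lower one in edgeR. Of all genes, 6.11% were higher, 0.502% lower and 6.62% called either way, and the medians were 0.39 for the 49 genes and -0.00 for all. Without overlap, 6 of the 49 lay above muscle in every MTJ section and 0 below, against 4.61% and 1.02% of all genes. Against tendon, 5 were higher in the MTJ and 30 lower. Of all genes, 32.8% were higher, 34.5% lower and 67.3% called either way, and the medians were -0.81 for the 49 genes and -0.10 for all. Sections of MTJ lay above all tendon sections for 2 of the 49 genes and below them for 22, against 23.6% and 21.9% of all genes. These comparisons share sections, so their counts are not independent. Scaling by library totals without TMM factors shifted the median of all genes by 1.24 for tendon over muscle, 0.23 for MTJ over muscle and -1.01 for MTJ over tendon. On that scale 46 of the 49 were higher and 0 lower in tendon than in muscle. MTJ against muscle gave 21 higher and 0 lower, and MTJ against tendon gave 1 higher and 45 lower. Of all 15343 genes, 11378 (74.2%) were then higher and 1906 lower in tendon than in muscle. MTJ against muscle gave 2355 (15.3%) of all genes higher and 12 lower, and MTJ against tendon 1962 (12.8%) higher and 10842 lower. With only the 10 MTJ and muscle libraries, 16 of 45 tested genes were higher in the MTJ. Of all 13564 genes tested there, 1479 (10.9%) were higher and 1381 lower. By mean level, the MTJ stood between tendon and muscle for 33 of the 49 genes, above both for 6 and below both for 10. Without TMM factors it stood between them for 44, above both for 2 and below both for 3. Of the 52 genes, 6 (LTBP3, ID4, CHRDL1, ID2, ID1 and FSTL3) are among the tendon reference genes that the authors chose on these sections. Thus the direction of these 6 in tendon against muscle is not independent evidence. They are also among the genes that set the tendon share of the mixture described below.

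**Figure D1:**
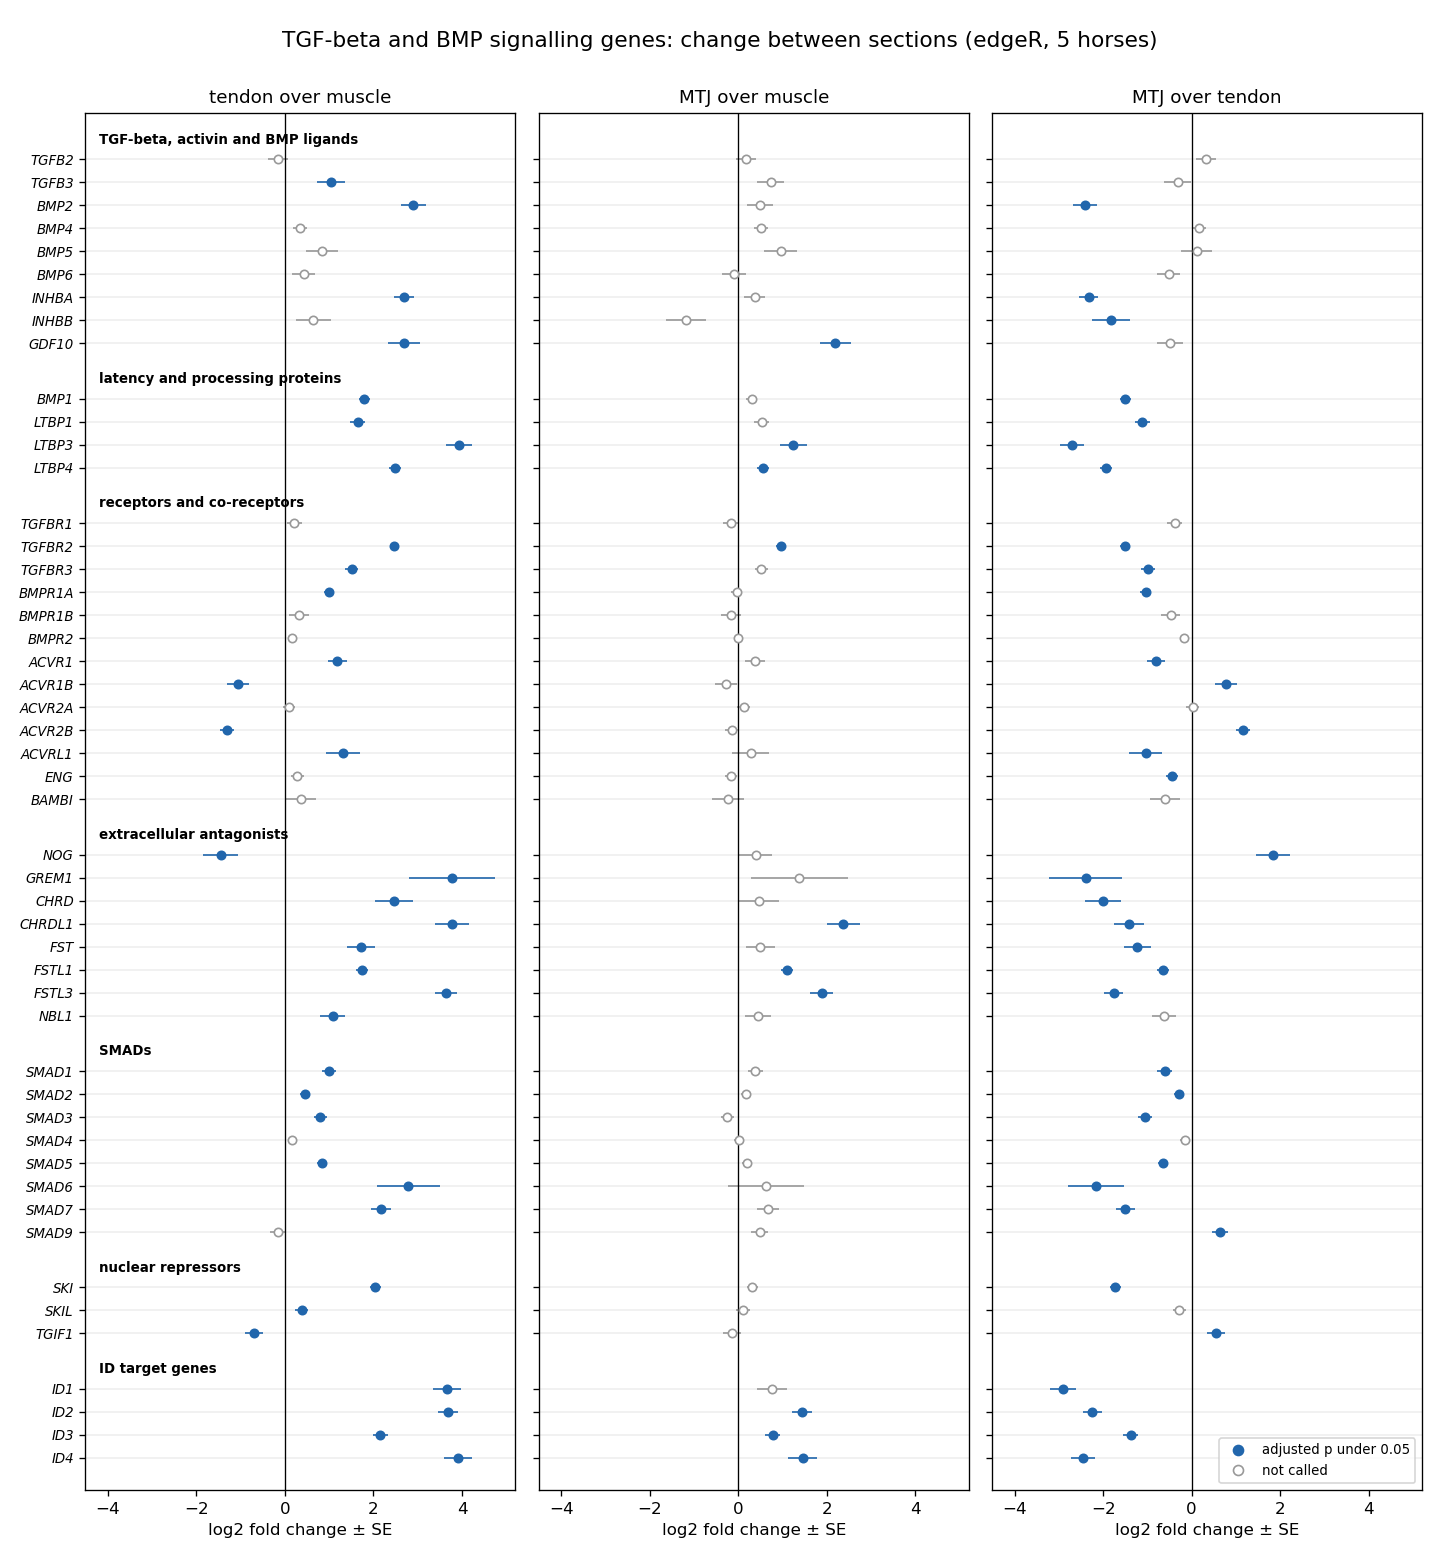
Log2 fold change of each of the 49 tested genes (points) with its standard error (bars) for tendon over muscle, MTJ over muscle and MTJ over tendon, from edgeR on 5 horses. Filled points passed an adjusted p of 0.05: 36 of 49 in the first panel, 10 in the second and 35 in the third; without TMM factors the direction reverses for 4 genes in the first panel (TGFB2, ACVR1B, SMAD9 and TGIF1), for 8 genes near 0 in the second, none of them filled, and for 7 in the third (TGFB2, BMP4, BMP5, ACVR1B, ACVR2A, SMAD9 and TGIF1).

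Among the ligands, BMP2, INHBA, GDF10 and TGFB3 were higher in tendon than in muscle, and GDF10 was the only one of 9 tested ligands that was also higher in the MTJ than in muscle. BMP2, a bone morphogenetic protein that can induce bone and cartilage (chromosome 22 in the deposited table), stood at 0.943, 2.06, 2.97, 1.501 and 1.49 CPM in MTJ sections, 8.28, 7.52, 11.4, 7.30 and 11.5 CPM in tendon sections and 0.696, 1.43, 2.07, 0.441 and 1.95 CPM in muscle sections. Every tendon section lay above every MTJ and muscle section, and the log2 fold change of tendon over muscle was 2.90 ± 0.28 (SE, adjusted p = 1.65e-06). INHBA, the beta-A subunit of activin A, stood at 1.60, 1.03, 2.07, 1.85 and 1.35 CPM in MTJ sections, 6.35, 7.03, 10.4, 8.93 and 7.01 CPM in tendon sections and 0.696, 1.35, 1.31, 1.18 and 1.56 CPM in muscle sections. Its tendon sections also lay above all others, by 2.69 ± 0.22 over muscle (adjusted p = 4.85e-07), while its MTJ and muscle sections overlapped (0.37 ± 0.24, adjusted p = 0.421).

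GDF10, a family member also called BMP3B (chromosome 1), was found at 3.92, 3.08, 6.14, 1.501 and 1.76 CPM in MTJ sections, 4.38, 5.24, 6.34, 2.82 and 2.71 CPM in tendon sections and 0.464, 0.168, 1.77, 0.662 and 0.467 CPM in muscle sections. Muscle sections were low in all horses, while MTJ sections lay within the range of tendon in horses 14, 16 and 17 and below it in horses 18 and 20. The log2 fold change was 2.69 ± 0.35 for tendon over muscle (adjusted p = 2.39e-05) and 2.20 ± 0.36 for MTJ over muscle (adjusted p = 0.00307), while MTJ over tendon was not called (-0.49 ± 0.30, adjusted p = 0.162). TGFB3, a TGF-beta isoform (chromosome 24), stood at 15.5, 10.9, 11.5, 27.4 and 19.9 CPM in MTJ sections, 23.9, 20.8, 12.02, 13.5 and 29.4 CPM in tendon sections and 8.50, 8.50, 4.76, 24.6 and 7.87 CPM in muscle sections. In 4 of 5 horses tendon was above muscle, and horse 18, with the only high muscle section, went the other way. The difference of 1.05 ± 0.32 on the log2 scale (adjusted p = 0.00996) was not called without horse 14 (0.92, adjusted p = 0.0538), without horse 20 (0.83, adjusted p = 0.0620) or with the tendon sections of 3 horses (14, 16 and 17) left out (0.56, adjusted p = 0.284). Without horse 18 the MTJ was called above muscle (0.97, adjusted p = 0.00831) and below tendon (-0.54, adjusted p = 0.0132). Without the horse block the tendon to muscle difference had an adjusted p of 0.0584.

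TGFB2, BMP4, BMP5, BMP6 and INHBB were not called between tendon and muscle. TGFB2, another TGF-beta isoform, stood at 6.82, 8.37, 6.91, 7.68 and 11.6 CPM in MTJ sections, 6.05, 9.81, 6.53, 4.51 and 6.23 CPM in tendon sections and 6.11, 5.64, 7.37, 9.57 and 7.40 CPM in muscle sections, and its 3 groups overlapped. Its differences were -0.14 ± 0.22 for tendon over muscle and 0.32 ± 0.22 for MTJ over tendon (adjusted p = 0.572 and 0.215), and both reversed and were called without TMM factors (1.09 and -0.68). With the tendon sections of horses 14, 16 and 17 left out, however, TGFB2 was lower in tendon than in muscle (-0.68, adjusted p = 0.0297) and higher in the MTJ than in tendon (0.87, adjusted p = 0.0105). BMP4, a BMP active in limb and muscle development, stood at 18.3, 17.9, 18.7, 23.2 and 18.0 CPM in MTJ sections, 17.4, 17.7, 18.1, 16.2 and 15.2 CPM in tendon sections and 8.12, 13.1, 13.2, 19.8 and 14.3 CPM in muscle sections. In each horse its MTJ section was above both neighbours, and the tendon sections were close to one another, but these values are scaled with TMM factors, and neither pairwise difference was called (0.51 ± 0.16 over muscle, adjusted p = 0.0769, and 0.17 ± 0.15 over tendon, adjusted p = 0.334). Without TMM factors the direction against tendon reversed, and BMP4 was called lower in the MTJ (-0.84, adjusted p = 1.56e-04). Without horse 18, whose muscle section was the highest, BMP4 was called higher in tendon than in muscle (0.51, adjusted p = 0.0109) and in the MTJ than in muscle (0.60, adjusted p = 0.0498).

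BMP5, a BMP of skeletal and joint development, stood at 4.93, 6.31, 8.53, 14.7 and 10.6 CPM in MTJ sections, 8.31, 7.73, 16.1, 3.70 and 7.72 CPM in tendon sections and 3.94, 4.79, 5.30, 2.87 and 6.78 CPM in muscle sections. Its MTJ section was above muscle in all 5 horses, with the highest MTJ level in horse 18. The log2 difference of 0.96 ± 0.37 missed the threshold (adjusted p = 0.164), but it was called with only the MTJ and muscle libraries (0.88, adjusted p = 0.0222). Tendon over muscle was 0.85 ± 0.36 (adjusted p = 0.0510), which passed without horse 18 (0.92, adjusted p = 0.00433) and without the horse block (adjusted p = 0.0407). It also passed with DESeq2 (adjusted p = 0.0328), without a filter on low counts (0.0340) and with only the tendon and muscle libraries (0.0149). BMP6 stood at 2.86 ± 0.878 CPM in MTJ sections, 4.13 ± 1.44 CPM in tendon sections and 3.03 ± 0.813 CPM in muscle sections (SD, n = 5 each) and was called in none of the 3 comparisons. Without horse 18 BMP6 was called higher in tendon than in muscle (0.68, adjusted p = 0.0327). INHBB, the beta-B subunit of activins, had low levels of 0.372 ± 0.140 CPM in MTJ sections, 1.34 ± 0.542 CPM in tendon sections and 0.846 ± 0.362 CPM in muscle sections. INHBB was lower in the MTJ than in tendon (-1.82 ± 0.43, adjusted p = 0.00245). Tendon over muscle for INHBB was 0.65 ± 0.40 (adjusted p = 0.165), and it was called with the 3 tendon sections of horses 14, 16 and 17 left out (1.55, adjusted p = 0.0279). TGFB1, the best known TGF-beta isoform, was nearly absent from the counts, with 7 reads in all MTJ sections, 73 in all tendon sections and 9 in all muscle sections. Without horse 18, TGFB1 passed the filter and was called higher in tendon than in muscle (2.30, adjusted p = 0.0118). BMP7 and GDF6 reached at most 0.338 and 1.41 CPM in any section, and without horse 14 GDF6 was called higher in tendon than in muscle (2.03, adjusted p = 0.0394).

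**Figure D2:**
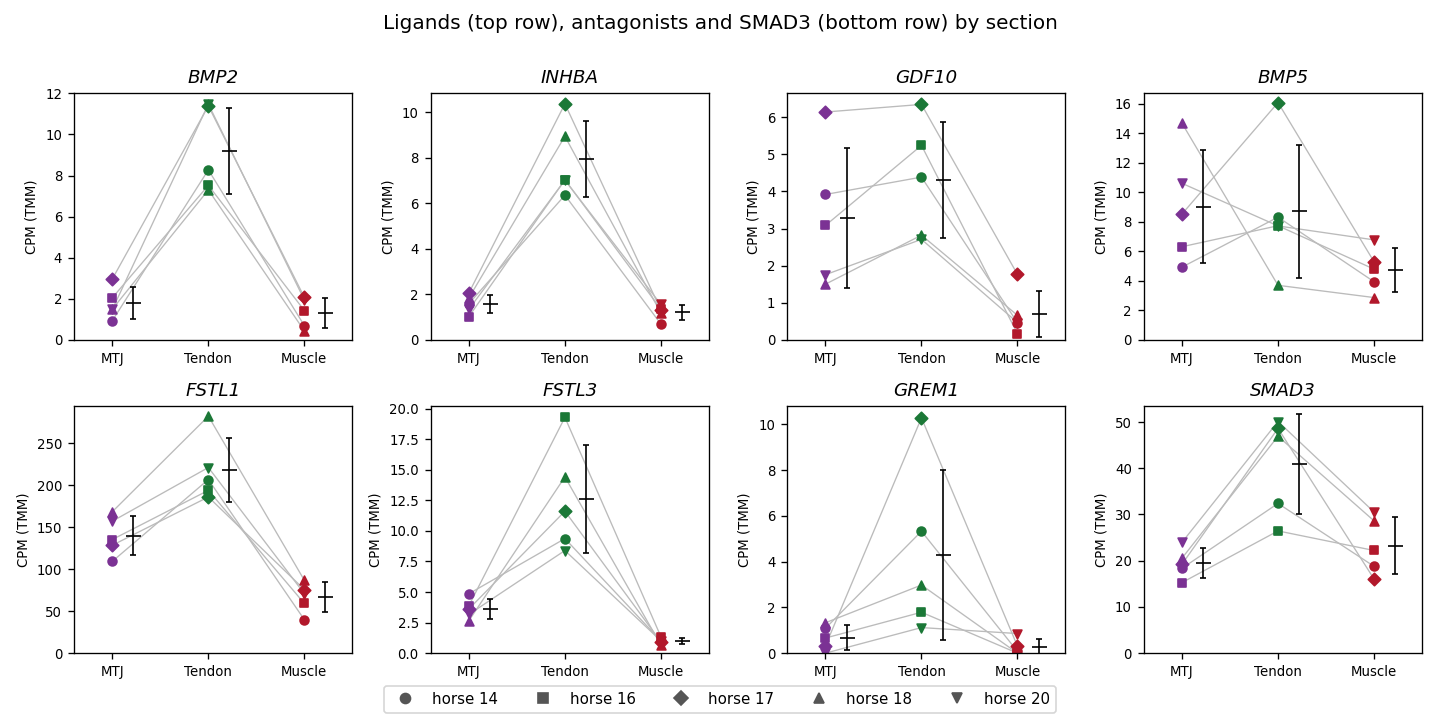
CPM of 4 ligands (BMP2, INHBA, GDF10, BMP5), 3 antagonists (FSTL1, FSTL3, GREM1) and SMAD3 in MTJ, tendon and muscle sections. Symbols mark the 5 horses, thin lines join sections of a horse, and bars give mean ± SD; BMP2 and INHBA are high only in the tendon sections, while 3 of 5 MTJ sections of GDF10 lie within the range of tendon.

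All 4 latency and processing proteins were higher in tendon than in muscle and lower in the MTJ than in tendon, and LTBP3 and LTBP4 were also higher in the MTJ than in muscle. LTBP proteins tether latent TGF-beta to matrix fibrils. LTBP3 (chromosome 12) stood at 4.50, 4.18, 10.4, 3.06 and 5.34 CPM in MTJ sections, 21.7, 51.4, 40.6, 27.9 and 34.4 CPM in tendon sections and 1.86, 3.45, 2.38, 2.65 and 1.01 CPM in muscle sections. All tendon sections were far above the rest, with a log2 fold change of 3.93 ± 0.30 over muscle (adjusted p = 2.49e-07), a 15.3-fold difference and the largest of the 49 genes. LTBP4 stood at 32.3, 55.0, 96.2, 32.0 and 29.0 CPM in MTJ sections, 173, 239.7, 253, 106 and 119 CPM in tendon sections and 27.8, 42.3, 54.0, 20.4 and 18.4 CPM in muscle sections. The change of tendon over muscle was 2.50 ± 0.13 (adjusted p = 3.84e-08). Horses 16 and 17 had the highest LTBP4 levels in all 3 kinds of section.

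For MTJ over muscle, LTBP3 changed by 1.24 ± 0.31 (adjusted p = 0.0308) and LTBP4 by 0.56 ± 0.13 (adjusted p = 0.0222). The LTBP3 call was lost without horse 14 (1.23, adjusted p = 0.110), horse 17 (0.97, adjusted p = 0.157) or horse 20 (1.04, adjusted p = 0.119). That of LTBP4 was lost without horse 16, 17, 18 or 20 (adjusted p = 0.0548, 0.0590, 0.0750 and 0.0971). Without the horse block adjusted p was 0.0555 for LTBP3 and 0.555 for LTBP4. LTBP1 changed by 1.65 ± 0.18 for tendon over muscle and BMP1, the proteinase that cleaves procollagen, chordin and LTBP1, by 1.80 ± 0.13 (adjusted p = 3.91e-06 and 1.49e-07). Neither was called between MTJ and muscle (0.53 ± 0.17 and 0.30 ± 0.13, adjusted p = 0.0984 and adjusted p = 0.204), but without horse 16 LTBP1 was (0.62, adjusted p = 0.0447).

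Of 13 receptors and co-receptors, 5 were higher and 2 lower in tendon than in muscle, shares of 38.5% and 15.4% beside 38.8% and 34.6% of all genes. The type II receptor of TGF-beta, TGFBR2 (chromosome 16), stood at 36.0, 46.9, 58.3, 53.5 and 49.8 CPM in MTJ sections, 121, 129.7, 189, 139 and 120.1 CPM in tendon sections and 17.9, 22.7, 33.0, 25.3 and 27.9 CPM in muscle sections. The 3 kinds of section were fully separated, with muscle lowest, the MTJ between and tendon highest. Its log2 fold change was 2.47 ± 0.10 for tendon over muscle (adjusted p = 1.41e-08), 0.96 ± 0.10 for MTJ over muscle (adjusted p = 2.13e-04) and -1.52 ± 0.10 for MTJ over tendon (adjusted p = 4.41e-07). The type I receptor TGFBR1, its signalling partner, stood at 16.4 ± 1.258 CPM in MTJ sections, 21.9 ± 7.27 CPM in tendon sections and 18.6 ± 2.66 CPM in muscle sections (SD, n = 5 each). Tendon over muscle for TGFBR1 was 0.21 ± 0.17 (adjusted p = 0.270), and it was called with the tendon sections of horses 14, 16 and 17 left out (0.52, adjusted p = 0.0316). TGFBR1 was called lower in the MTJ than in tendon in that setting (-0.68, adjusted p = 0.00929), without horse 14 (-0.47, adjusted p = 0.0438) and without horse 17 (-0.48, adjusted p = 0.0474). TGFBR3, or betaglycan, a co-receptor that presents TGF-beta, was higher in tendon by 1.51 ± 0.15 (adjusted p = 2.64e-06), and in the MTJ it stood 0.52 ± 0.15 above muscle, which missed the threshold (adjusted p = 0.0635). This TGFBR3 difference was called with DESeq2 (adjusted p = 0.0415), with only the MTJ and muscle libraries (0.00189) and with the 3 tendon sections left out (0.0242).

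The activin receptors ACVR2B and ACVR1B were lower in tendon than in muscle. ACVR2B, the type II receptor for activins and myostatin (chromosome 16), stood at 12.4, 12.5, 14.7, 10.3 and 11.5 CPM in MTJ sections, 4.31, 7.36, 6.64, 4.58 and 4.94 CPM in tendon sections and 11.4, 12.2, 14.2, 17.3 and 12.4 CPM in muscle sections. Tendon sections lay below all others, while MTJ and muscle sections overlapped, and the log2 fold changes were -1.30 ± 0.16 for tendon over muscle (adjusted p = 1.50e-05) and 1.16 ± 0.16 for MTJ over tendon (adjusted p = 5.21e-05). Without TMM factors neither ACVR2B call held: tendon over muscle was -0.06, adjusted p = 0.705, and MTJ over tendon was 0.15, adjusted p = 0.337. ACVR1B, a type I receptor for activins (chromosome 6), stood at 1.45, 4.18, 5.23, 1.85 and 3.92 CPM in MTJ sections, 1.47, 3.08, 2.10, 1.19 and 1.59 CPM in tendon sections and 3.63, 4.63, 6.06, 2.43 and 2.73 CPM in muscle sections. In all 5 horses tendon was below muscle, although the groups overlapped, with a log2 fold change of -1.05 ± 0.25 with TMM factors (adjusted p = 0.00236) and with the sign reversed without them (0.18). MTJ over tendon was 0.78 ± 0.25 for ACVR1B (adjusted p = 0.0161), also reversed without TMM factors (-0.23) and not called without horse 17 (adjusted p = 0.0836), horse 20 (0.0673) or the horse block (0.0706). ACVR2A, the other activin type II receptor, stood at 21.7 ± 5.41 CPM in MTJ sections, 21.0 ± 1.29 CPM in tendon sections and 19.9 ± 4.78 CPM in muscle sections (SD, n = 5 each) and was called in none of the 3 comparisons.

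Receptors for BMPs differed among themselves. BMPR1A, a type I receptor, stood at 27.3 ± 6.54 CPM in MTJ sections, 55.1 ± 5.89 CPM in tendon sections and 27.9 ± 4.56 CPM in muscle sections (SD, n = 5 each). It was higher in tendon than in muscle by 1.00 ± 0.12 on the log2 scale (adjusted p = 1.40e-05), and the type I receptor ACVR1 was higher by 1.19 ± 0.22 (adjusted p = 3.63e-04). BMPR2, the common type II receptor for BMPs, stood at 53.6 ± 3.20 CPM in MTJ sections, 60.5 ± 2.55 CPM in tendon sections and 53.8 ± 4.22 CPM in muscle sections. Its change of tendon over muscle was 0.17 ± 0.08 (adjusted p = 0.0646). BMPR1B and the decoy receptor BAMBI were called in none of the 3 comparisons. BMPR1B was lower in the MTJ than in tendon without horse 16 (-0.65, adjusted p = 0.0338) or horse 17 (-0.59, adjusted p = 0.0435). With the tendon sections of horses 14, 16 and 17 left out, BMPR1B was called higher in tendon than in muscle (0.74, adjusted p = 0.0106) and lower in the MTJ than in tendon (-0.90, adjusted p = 0.00432).

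ACVRL1 and ENG (endoglin) are a receptor and a co-receptor of blood vessel lining cells. ACVRL1 had low levels of 0.664 ± 0.257 CPM in MTJ sections, 1.49 ± 1.15 CPM in tendon sections and 0.575 ± 0.423 CPM in muscle sections. It was higher in tendon than in muscle by 1.32 ± 0.39 (adjusted p = 0.00909), a call lost without horse 17 (0.95, adjusted p = 0.0649). ENG was not called between tendon and muscle (0.28 ± 0.14, adjusted p = 0.0889) unless horse 17 was left out (0.40, adjusted p = 0.0424). Both were lower in the MTJ than in tendon, ACVRL1 by -1.03 and ENG by -0.45 (adjusted p = 0.0277 and 0.0150). That ACVRL1 call was lost without horse 14, horse 17 or the horse block, and the ENG call without horse 14, horse 20 or the block. Endothelial markers moved too: 8 of 14 tested were higher and 1 lower in tendon than in muscle, and 0 of 14 changed between MTJ and muscle. Against tendon, 9 of 14 were lower in the MTJ and 1 higher. Their summed level ran from 469 to 691 CPM in the MTJ, 548 to 1198 CPM in tendon and 464 to 709 CPM in muscle. Their part in the values of ACVRL1 and ENG was not tested.

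**Figure D3:**
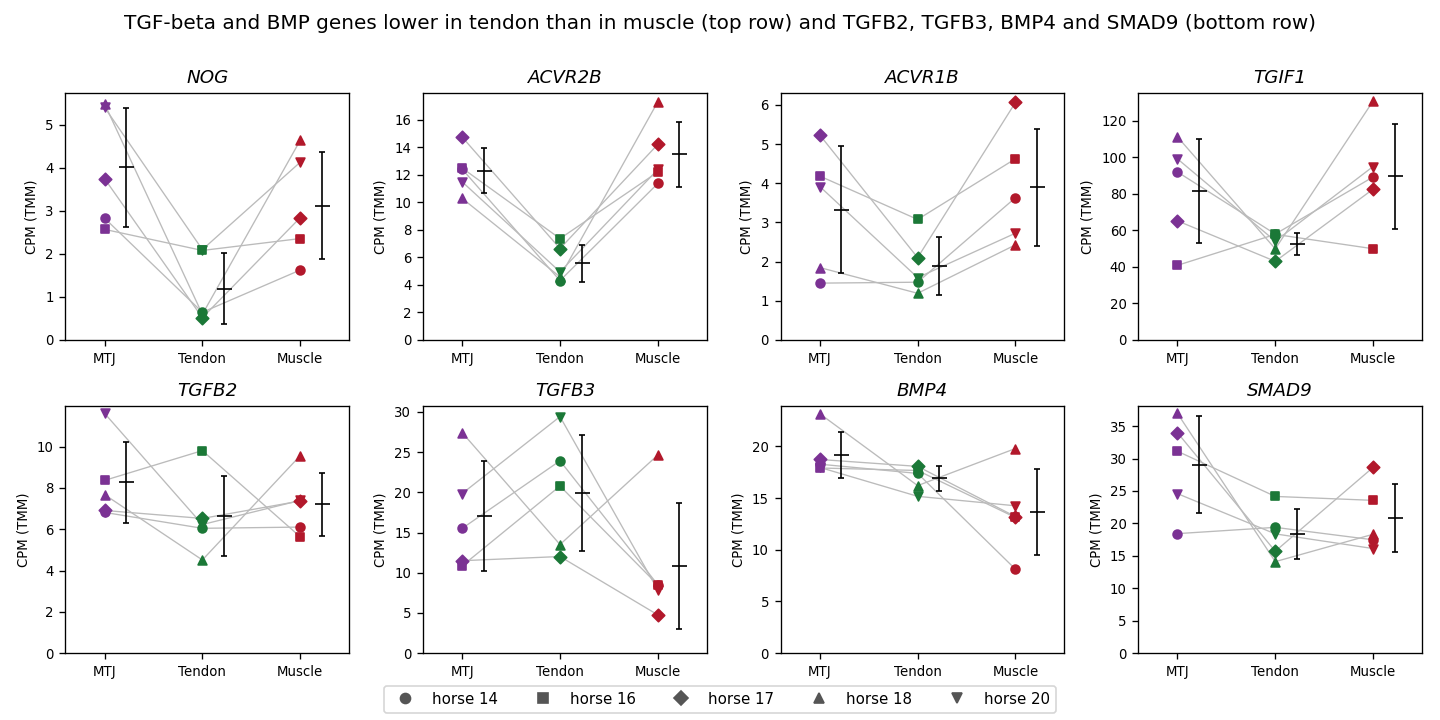
CPM of the 4 genes called lower in tendon than in muscle (top row) and of TGFB2, TGFB3, BMP4 and SMAD9 (bottom row) in MTJ, tendon and muscle sections of 5 horses, with mean ± SD as bars. The tendon section is lowest in every horse for NOG and ACVR2B in the top row, and in the bottom row the MTJ section of BMP4 is above both neighbours in every horse; without TMM factors ACVR1B, TGIF1, TGFB2 and SMAD9 reverse direction both in tendon over muscle and in MTJ over tendon, and BMP4 in MTJ over tendon.

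Of 8 extracellular antagonists, 7 were higher in tendon than in muscle and NOG was lower. CHRDL1, chordin-like 1, a secreted protein that binds BMPs (chromosome X), stood at 13.9, 17.5, 20.6, 40.0 and 21.7 CPM in MTJ sections, 56.3, 35.8, 40.0, 131 and 46.0 CPM in tendon sections and 0.618, 3.53, 7.06, 5.30 and 5.30 CPM in muscle sections. MTJ sections lay above all muscle sections and, apart from horse 18, below all tendon sections. The log2 fold change was 3.79 ± 0.38 for tendon over muscle (adjusted p = 2.47e-06), 2.37 ± 0.37 for MTJ over muscle (adjusted p = 0.00232) and -1.42 ± 0.33 for MTJ over tendon (adjusted p = 0.00233). FSTL3, a follistatin-like protein that binds activins and myostatin (chromosome 7), stood at 4.86, 3.89, 3.62, 2.66 and 3.17 CPM in MTJ sections, 9.37, 19.3, 11.6, 14.4 and 8.40 CPM in tendon sections and 1.00, 1.35, 0.921, 0.662 and 1.01 CPM in muscle sections. No section of one kind overlapped with another kind, and the changes were 3.65 ± 0.25 for tendon over muscle (adjusted p = 1.25e-07) and 1.89 ± 0.26 for MTJ over muscle (adjusted p = 9.39e-04).

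FSTL1, a secreted glycoprotein of the follistatin family (chromosome 19), stood at 109, 135, 129, 168 and 157 CPM in MTJ sections, 207, 194, 186, 282 and 221 CPM in tendon sections and 39.8, 59.1, 75.7, 86.8 and 70.8 CPM in muscle sections. Muscle, MTJ and tendon sections again formed 3 separate ranges in that order, with 1.74 ± 0.14 for tendon over muscle (adjusted p = 3.32e-07) and 1.09 ± 0.13 for MTJ over muscle (adjusted p = 5.42e-04). GREM1, or gremlin, which binds BMP2 and BMP4 (chromosome 1), stood at 1.09, 0.661, 0.323, 1.33 and 0 CPM in MTJ sections, 5.33, 1.79, 10.3, 2.98 and 1.12 CPM in tendon sections and 0.0773, 0, 0.307, 0 and 0.857 CPM in muscle sections. Its tendon levels differed widely among horses and were highest in horse 17, and 2 of 5 muscle sections and 1 MTJ section had no read. Tendon over muscle was 3.78 ± 0.96 (adjusted p = 0.00362), and with the tendon sections of horses 14, 16 and 17 left out the call was lost (2.55, adjusted p = 0.0942). For MTJ over tendon, a change of -2.40 ± 0.82 (adjusted p = 0.0206) lost its call without horse 14 or 17 (adjusted p = 0.0592 and 0.110) and with DESeq2 (adjusted p = 0.0922).

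Noggin, encoded by NOG (chromosome 11), blocks BMPs by covering their receptor-binding surfaces, and it went the other way. Its levels were 2.83, 2.57, 3.75, 5.49 and 5.40 CPM in MTJ sections, 0.642, 2.08, 0.516, 0.595 and 2.10 CPM in tendon sections and 1.62, 2.36, 2.84, 4.64 and 4.13 CPM in muscle sections. All MTJ sections lay above all tendon sections, and in each of the 5 horses the order was MTJ, muscle and tendon from high to low. Tendon over muscle was -1.45 ± 0.39 (adjusted p = 0.00513) and MTJ over tendon 1.84 ± 0.39 (adjusted p = 0.00116), while MTJ over muscle was 0.39 ± 0.37 and was not called (adjusted p = 0.599). Without TMM factors the NOG change of tendon over muscle was -0.22, adjusted p = 0.593. Among the remaining antagonists, CHRD (chordin) was higher in tendon than in muscle by 2.47 ± 0.42, FST (follistatin) by 1.72 ± 0.32 and NBL1 by 1.09 ± 0.29 (adjusted p = 2.04e-04, 4.21e-04 and 0.00431). None of these 3 was called between MTJ and muscle, and the NBL1 call in tendon was lost with the tendon sections of horses 14, 16 and 17 left out (0.36, adjusted p = 0.361).

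Of 8 SMAD genes, 6 were higher in tendon than in muscle, and no SMAD was called between MTJ and muscle. The inhibitory SMADs, which dampen the pathway and are themselves induced by it, had the largest changes. SMAD7 stood at 1.16, 1.98, 3.81, 3.06 and 1.49 CPM in MTJ sections, 3.59, 6.07, 9.29, 6.33 and 6.06 CPM in tendon sections and 1.16, 1.51, 1.69, 1.77 and 0.779 CPM in muscle sections. Every tendon section lay above every muscle section, by 2.17 ± 0.23 on the log2 scale (adjusted p = 3.61e-06). SMAD6 had under 1.5 CPM in every section, with 0.206 ± 0.193 CPM in MTJ sections, 0.904 ± 0.379 CPM in tendon sections and 0.125 ± 0.120 CPM in muscle sections (SD, n = 5 each). The fitted change of tendon over muscle was 2.79 ± 0.72 (adjusted p = 0.00381). Receptor-regulated SMADs changed less: SMAD1 by 1.00 ± 0.16, SMAD5 by 0.85 ± 0.11, SMAD3 by 0.81 ± 0.15 and SMAD2 by 0.46 ± 0.11 (adjusted p = 1.42e-04, 2.46e-05, 3.59e-04 and 0.00301). The SMAD2 call was lost with the tendon sections of horses 14, 16 and 17 left out (0.19, adjusted p = 0.227). SMAD4, the common partner, stood at 41.1 ± 4.54 CPM in MTJ sections, 45.7 ± 1.20 CPM in tendon sections and 41.2 ± 7.52 CPM in muscle sections. Tendon over muscle for SMAD4 was 0.17 ± 0.10 (adjusted p = 0.145).

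SMAD9, a BMP-side SMAD (chromosome 17), stood at 18.4, 31.1, 34.0, 37.0 and 24.6 CPM in MTJ sections, 19.4, 24.2, 15.7, 14.1 and 18.4 CPM in tendon sections and 17.5, 23.6, 28.6, 18.3 and 16.1 CPM in muscle sections. MTJ sections were above muscle in all 5 horses and above tendon in 4, all but horse 14. MTJ over tendon was 0.64 ± 0.19 with TMM factors (adjusted p = 0.00956) and reversed without them (-0.36), and MTJ over muscle was 0.48 ± 0.19 (adjusted p = 0.169). SMAD3, a TGF-beta-side SMAD (chromosome 1), stood at 18.3, 15.3, 19.2, 20.6 and 24.0 CPM in MTJ sections, 32.4, 26.4, 48.6, 46.9 and 50.1 CPM in tendon sections and 18.8, 22.2, 16.0, 28.6 and 30.5 CPM in muscle sections. Its MTJ sections were below tendon without overlap (-1.05 ± 0.15, adjusted p = 5.81e-05) and below muscle in 4 of 5 horses, a difference of -0.25 ± 0.15 that was not called (adjusted p = 0.392).

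The nuclear repressors SKI, SKIL and TGIF1 restrain SMAD-dependent transcription. SKI stood at 8.70, 10.2, 18.0, 11.95 and 10.9 CPM in MTJ sections, 36.4, 39.5, 48.5, 33.8 and 37.4 CPM in tendon sections and 10.1, 9.50, 10.7, 7.95 and 8.72 CPM in muscle sections. Every tendon section lay above every other section (2.05 ± 0.12 over muscle, adjusted p = 6.28e-08). SKIL was higher in tendon by 0.39 ± 0.15 (adjusted p = 0.0299), a call lost without horse 14, 16 or 18 (adjusted p = 0.0568, 0.0827 and 0.138). TGIF1, a homeodomain repressor (chromosome 8), stood at 92.0, 40.9, 65.2, 111 and 99.2 CPM in MTJ sections, 58.0, 57.8, 43.1, 49.9 and 54.1 CPM in tendon sections and 89.3, 50.0, 82.6, 131 and 95.0 CPM in muscle sections. Tendon was below muscle and below the MTJ in all horses but horse 16. TGIF1 was lower in tendon than in muscle with TMM factors (-0.68 ± 0.20, adjusted p = 0.00891), and with library totals alone it was called higher (0.55). MTJ over tendon was 0.54 ± 0.20 (adjusted p = 0.0328), reversed without TMM factors (-0.46). This TGIF1 difference was not called without horse 14, 17, 18 or 20 (adjusted p = 0.102, 0.0897, 0.0989 and 0.132).

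All 4 ID genes were higher in tendon than in muscle and lower in the MTJ than in tendon. ID proteins bind basic helix-loop-helix factors and keep them off DNA, and they are standard readouts of BMP signalling. ID1 (chromosome 22) stood at 0.798, 3.82, 5.04, 1.21 and 2.36 CPM in MTJ sections, 12.7, 28.6, 38.1, 10.6 and 8.29 CPM in tendon sections and 1.24, 2.02, 2.00, 0.368 and 1.71 CPM in muscle sections. ID2 (chromosome 15) stood at 13.1, 11.2, 19.1, 18.8 and 15.7 CPM in MTJ sections, 86.8, 52.01, 59.0, 84.1 and 82.3 CPM in tendon sections and 3.40, 6.39, 8.14, 4.93 and 5.61 CPM in muscle sections. Tendon sections lay above all others for both genes, and horses 16 and 17 had the highest ID1 levels in tendon. ID3 (chromosome 2) stood at 32.8, 36.9, 40.0, 40.2 and 28.4 CPM in MTJ sections, 104, 92.0, 108, 72.3 and 90.4 CPM in tendon sections and 14.99, 24.4, 32.9, 14.6 and 20.4 CPM in muscle sections. ID4 (chromosome 20) stood at 2.32, 2.94, 4.72, 6.52 and 1.55 CPM in MTJ sections, 19.7, 12.8, 30.5, 17.2 and 15.4 CPM in tendon sections and 0.850, 1.51, 1.46, 1.10 and 1.32 CPM in muscle sections. ID2 and ID4 formed 3 separate ranges, with muscle lowest and tendon highest, while for ID3 the lower MTJ sections fell within the range of muscle.

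Tendon over muscle was 3.66 ± 0.32 for ID1, 3.68 ± 0.23 for ID2, 2.16 ± 0.17 for ID3 and 3.91 ± 0.31 for ID4 (adjusted p = 6.99e-07, 7.63e-08, 3.80e-07 and 3.80e-07), or 12.7-, 12.9-, 4.46- and 15-fold. MTJ over muscle was 1.44 ± 0.22 for ID2, 1.46 ± 0.33 for ID4 and 0.78 ± 0.17 for ID3 (adjusted p = 0.00220, 0.0190 and 0.0162). For ID1 it was 0.76 ± 0.34 and was not called (adjusted p = 0.227). The ID4 call was lost without horse 14 (1.46, adjusted p = 0.0643), horse 17 (1.38, adjusted p = 0.0950) or horse 18 (1.12, adjusted p = 0.0587), and the ID3 call without horse 14 (0.70, adjusted p = 0.0612).

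**Figure D4:**
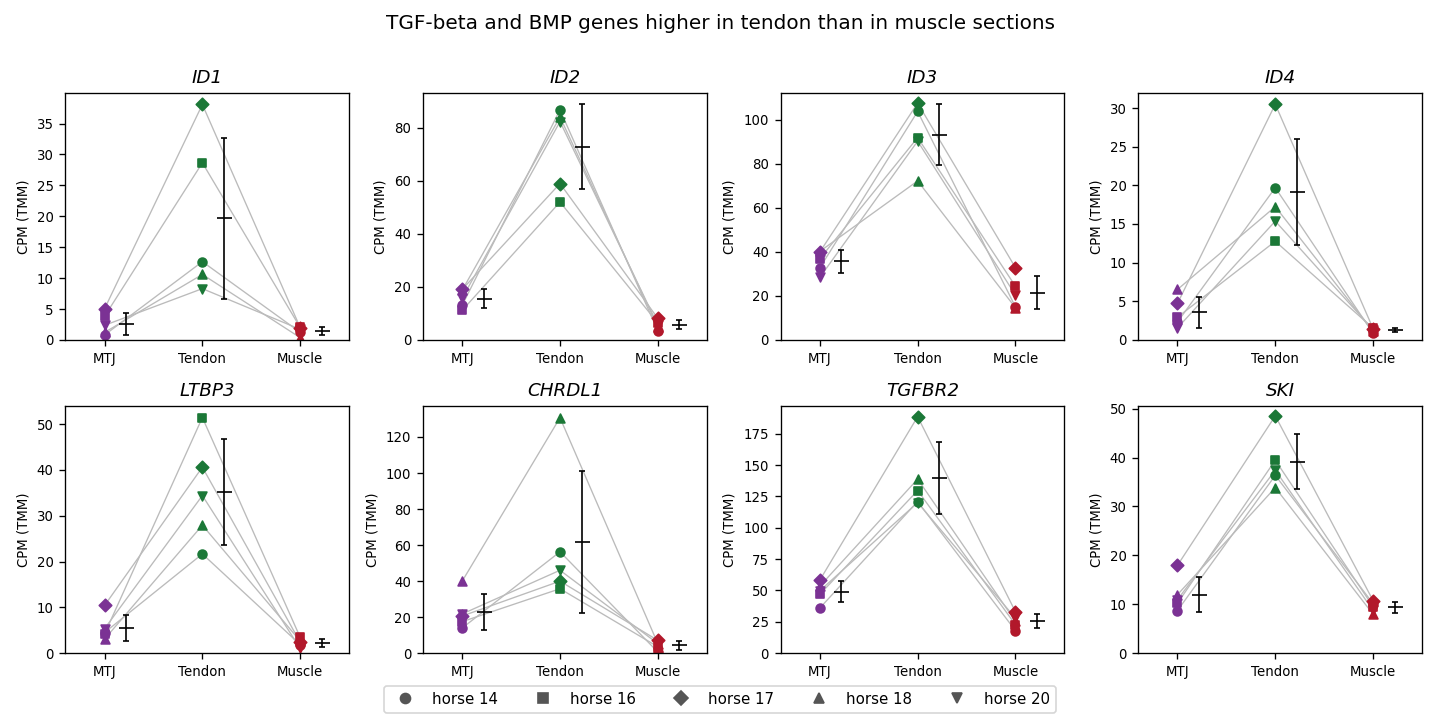
CPM of the 4 ID genes and of LTBP3, CHRDL1, TGFBR2 and SKI in MTJ, tendon and muscle sections of 5 horses, with thin lines joining sections of a horse and bars for mean ± SD. Tendon is highest in each horse for all 8 genes, and the MTJ sections of ID2, ID4 and TGFBR2 lie between those of tendon and muscle without overlap.

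Because an MTJ section holds both tissues, each MTJ library was also compared with a mixture of its own horse's muscle and tendon at the shares given above. Of the 49 genes, 6 were above the mixture and SMAD3 was below it (limma, adjusted p under 0.05). Among all genes, 3.02% were above, 0.958% below and 3.98% called either way. The median log2 ratio was 0.06 for the 49 genes and 0.05 for all genes. The 6 were 3 ligands (GDF10, TGFB3 and BMP4), 2 antagonists (CHRDL1 and FSTL1) and SMAD9, and each was above the mixture in 5 of 5 horses. GDF10 averaged 3.28 ± 1.88 CPM measured and 1.256 ± 0.920 CPM expected (SD, n = 5), with log2 ratios of 1.58, 1.48, 0.97, 0.49 and 0.91 and a mean of 1.08 ± 0.20 (adjusted p = 0.00914). CHRDL1 averaged 22.7 ± 10.1 CPM measured and 13.2 ± 7.53 CPM expected, with ratios of 0.73, 1.19, 0.43, 0.63 and 1.11 and a mean of 0.82 ± 0.12 (adjusted p = 0.00255). FSTL1 averaged 139.8 ± 23.4 CPM measured and 85.4 ± 19.7 CPM expected, with ratios of 0.85, 0.88, 0.32, 0.65 and 0.91 and a mean of 0.72 ± 0.08 (adjusted p = 4.65e-04). The ratios add 0.5 CPM to both sides and so understate the change of a gene at low level such as GDF10.

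For TGFB3 the log2 ratios to the mixture were 0.59, 0.16, 0.77, 0.50 and 0.98, with a mean of 0.60 ± 0.12 (adjusted p = 0.0158). For SMAD9 they were 0.14, 0.45, 0.41, 1.28 and 0.69, lowest in horse 14 and highest in horse 18, with a mean of 0.59 ± 0.14 (adjusted p = 0.0325). For BMP4 they were 1.00, 0.43, 0.37, 0.49 and 0.43, with the highest in horse 14, whose muscle level was the lowest, and a mean of 0.54 ± 0.11 (adjusted p = 0.0157). SMAD3 lay below the mixture in each horse, with ratios of -0.09, -0.50, -0.31, -0.41 and -0.34 and a mean of -0.33 ± 0.08 (adjusted p = 0.0442).

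Not all of these calls held when a horse was left out. The TGFB3 call was lost without horse 14 or 20 (adjusted p = 0.0650 and 0.0970), that of BMP4 without horse 20 (0.0554) and that of SMAD9 without horse 16, 18 or 20 (0.0790, 0.0505 and 0.134). SMAD3 was not called without horse 16, 17, 18 or 20 (0.158, 0.0782, 0.114 and 0.169). GDF10, CHRDL1 and FSTL1 passed the test whichever of the 5 horses was left out. Without a filter on low counts, 0 of the 49 were called. Of all 26156 genes tested there, 35 (0.134%) were above the mixture and 6 below. With muscle and tendon shares solved together, a setting added after the data were seen, the 6 genes were again called and SMAD3 was not called (-0.22, adjusted p = 0.102). On these shares TGFBR2 (0.46, adjusted p = 0.0162), TGFBR3 (0.40, adjusted p = 0.0203) and NOG (0.60, adjusted p = 0.0371) also passed. The same shares put 1657 of all 15343 genes (10.8%) above the mixture and 94 below, with a median log2 ratio of 0.13. Without horse 17, TGFBR2 and TGFBR3 also passed (0.36, adjusted p = 0.0178 and 0.35, adjusted p = 0.0399). Another 5 genes lay to one side of the mixture in 5 of 5 horses without passing the test. BMP5 (0.72 ± 0.27, adjusted p = 0.183) and NOG (0.56 ± 0.17, adjusted p = 0.0910) had positive ratios. Negative ratios were found for ID1 (-0.66 ± 0.19, adjusted p = 0.0886), INHBB (-0.64 ± 0.19, adjusted p = 0.0971) and BMP2 (-0.39 ± 0.17, adjusted p = 0.273).

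**Figure D5:**
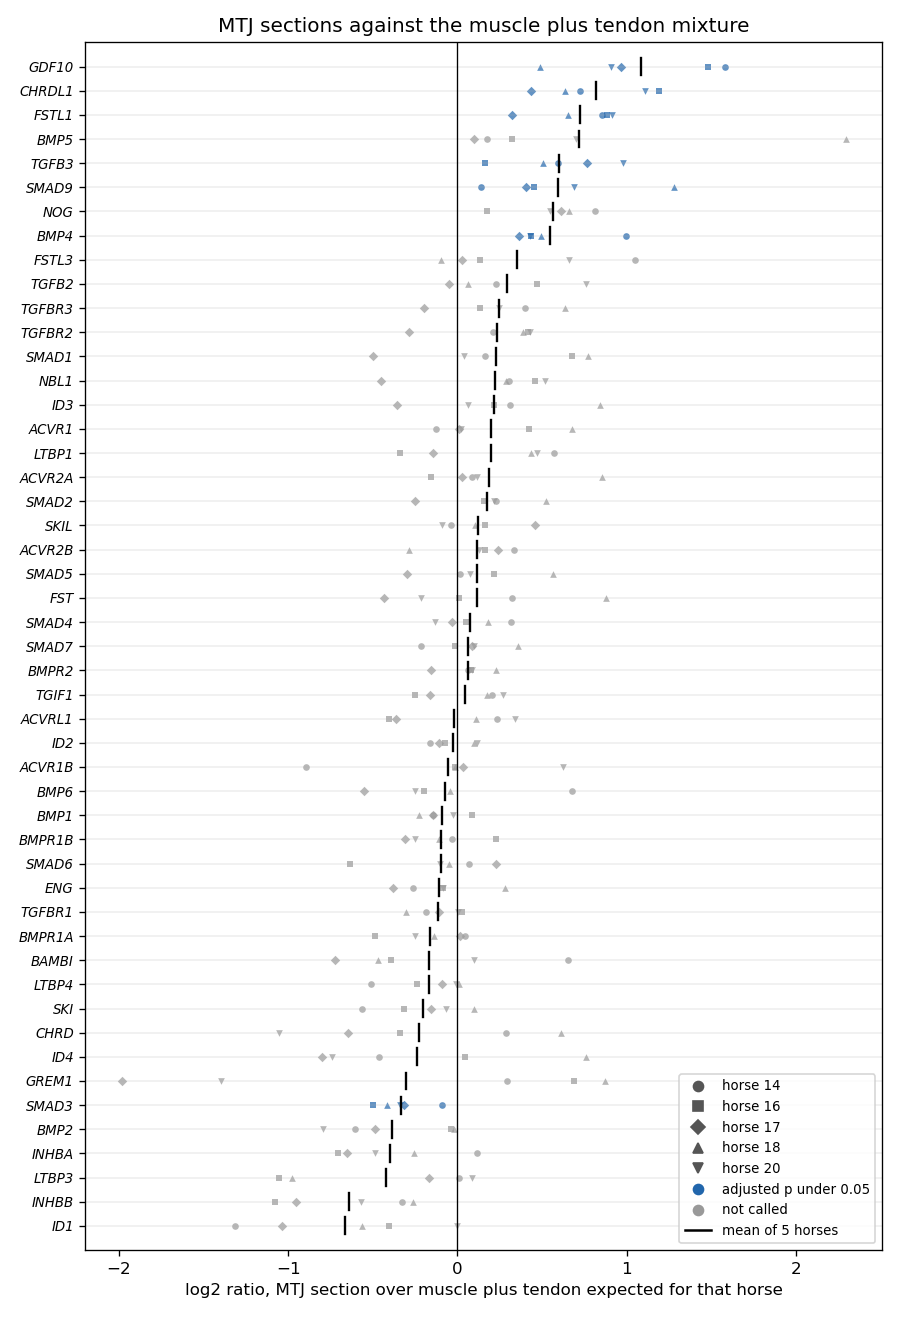
Log2 ratio of each MTJ section to the mixture of muscle and tendon expected for its horse (symbols, 1 per horse) with the mean of 5 horses (black ticks), for the 49 tested genes in order of the mean. Blue genes passed an adjusted p of 0.05 (limma); the 5 symbols of GDF10, CHRDL1, FSTL1, TGFB3, SMAD9 and BMP4 lie right of 0 and those of SMAD3 left of it.

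The authors' deposited table of the MTJ against a predicted value holds 26 of the 52 genes among 7613, and 0 of the 26 have an adjusted p under 0.05 there. In the authors' deposited table the log2 change is 0.85 for CHRDL1, 0.73 for FSTL1, 0.62 for TGFB3, 0.60 for SMAD9, 0.56 for BMP4 and -0.34 for SMAD3. The authors' deposited table gives adjusted p-values of 0.0800 for CHRDL1, 0.0686 for FSTL1, 0.0916 for TGFB3, 0.136 for SMAD9, 0.0873 for BMP4 and 1.00 for SMAD3. Those of the 26 with a negative change have adjusted p-values of 0.836 to 1.00 in the authors' deposited table. Whether the authors' test could call a lower level at all is not given in the sources used here, whereas limma tests both directions. The authors' value for SMAD3 can therefore not be set against its limma call. GDF10 is not among the 26. When the authors' deposited log2 changes per horse were tested with limma instead, 5 of the 26 genes were above and 1 below.

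Markers of other cells moved as well. In tendon, 11 of 12 tested macrophage markers and 7 of 7 tested markers of fibro-adipogenic progenitors were higher than in muscle. Of the macrophage markers, 8 were higher in the MTJ than in muscle and 7 above the mixture, and CD14 had no read in any section. Their summed levels were 173 to 316 CPM in the MTJ, 272 to 535 CPM in tendon and 66.9 to 185 CPM in muscle. Of the progenitor markers, 2 were higher in the MTJ than in muscle and 2 above the mixture. Their sums were 549 to 743 CPM in the MTJ, 1247 to 2004 CPM in tendon and 269.5 to 467 CPM in muscle. Of 5 tested satellite cell markers, 0 were higher in the MTJ than in muscle and 2 were above the mixture. Their sums were 351 to 429 CPM in the MTJ, 44.3 to 278 CPM in tendon and 163 to 317 CPM in muscle. Among them, NCAM1 averaged 149 CPM in the MTJ and 22.8 CPM in muscle, and ITGA7 179.6 and 178.9 CPM. Of 6 tested adipocyte markers 1 was above the mixture, and 0 Schwann cell or pericyte and smooth muscle markers were. The part of these cells in the 6 genes above the mixture, or in those higher in tendon, was not tested.

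Whether the MTJ lay outside both neighbours was asked without assuming a mixture. By the larger p-value of the comparisons with muscle and with tendon, where both had one direction, 0 of the 49 genes and 0 of all genes passed after adjustment (edgeR). At an unadjusted p under 0.05, 190 genes did and 2 of the 49, and with DESeq2 3 genes passed after adjustment and 0 of the 49. The 2, named after their values were seen, were SMAD9, above both (its direction against tendon reverses without TMM factors), and INHBB, below both with under 1 CPM in each MTJ section.

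Genes of the same pathway outside the 52 were counted from 3 further lists. Of 49 tested other pathway genes, 24 were higher and 13 lower in tendon than in muscle, against 40 and 7 without TMM factors. Of all genes, 38.8% were higher with TMM factors and 74.2% without them. Of the list, 6 are also tendon reference genes that the authors chose on these sections. Their direction in tendon against muscle is thus not independent evidence. The median log2 fold change of the 49 pathway genes was 0.25. In the MTJ, 10 were higher than in muscle and 0 lower, with 5 higher without horse 14 or without horse 17, and 1 was above and 2 below the mixture. THBS1, or thrombospondin 1, which activates latent TGF-beta, stood at 270.3 ± 124 CPM in MTJ sections, 4389 ± 1926 CPM in tendon sections and 17.9 ± 7.497 CPM in muscle sections (SD, n = 5 each). Its log2 fold change of tendon over muscle was 7.97 ± 0.60 (adjusted p = 2.38e-07). LTBP2, a microfibril protein related to the latency proteins, changed by 6.36 ± 0.42 (adjusted p = 9.68e-08). BMP3, a BMP family member, averaged 1.81 CPM in tendon and had no read in any muscle section, so tendon was at least 38.7-fold higher against a floor of 3 counts over the muscle group. On the muscle side, MSTN, which encodes myostatin, stood at 5.02 ± 3.00 CPM in MTJ sections, 0.785 ± 0.828 CPM in tendon sections and 7.70 ± 2.20 CPM in muscle sections. It changed by -3.64 ± 0.48 for tendon over muscle (adjusted p = 2.53e-05). INHBE, an inhibin beta subunit, changed by -4.22 ± 0.81 with under 1 CPM on average in each kind of section, and HJV, or hemojuvelin, a BMP co-receptor of muscle and liver, by -3.53 ± 0.65 (adjusted p = 4.91e-04 and 3.56e-04).

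Against the mixture, MAP3K7, the kinase TAK1 of the SMAD-independent branch, stood above it by 0.70 ± 0.09 (adjusted p = 0.00172) in 5 of 5 horses. THBS1 and DCN, or decorin, a proteoglycan that binds TGF-beta, stood below it by log2 ratios of -1.38 ± 0.34 and -0.64 ± 0.15 in 4 of 5 horses each (adjusted p = 0.0463 and 0.0383). MAP3K7 averaged 55.9 ± 11.8 CPM in MTJ sections, 27.8 ± 8.15 CPM in tendon sections and 38.2 ± 3.46 CPM in muscle sections (SD, n = 5 each).

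Known TGF-beta target genes lay on both sides of the mixture in the MTJ. Of 28 tested, 19 were higher and 1 lower in tendon than in muscle, and in the MTJ 13 were higher than in muscle and 0 lower. Of the list, 8 are also tendon reference genes of the authors, so their direction in tendon is not independent evidence. Tendon reference genes also set the tendon share of the mixture. ACAN, the cartilage proteoglycan aggrecan, changed by 9.79 ± 0.90 and LOX, the collagen cross-linking enzyme, by 9.01 ± 0.63 for tendon over muscle (adjusted p = 1.10e-06 and 1.34e-07). The zinc finger factor KLF10 changed by -0.59 ± 0.19 (adjusted p = 0.0156) and by 0.65 without TMM factors. The KLF10 call was the only lower one, and the count was 0 without horse 16, 17 or 20. Against the mixture, 6 of 28 were above and 5 below, beside 3.02% and 0.958% of all genes.

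Above the mixture, POSTN, or periostin, a matrix protein of ligaments and healing tissue, stood at 33.6 ± 13.6 CPM in MTJ sections, 7.58 ± 6.51 CPM in tendon sections and 3.86 ± 1.60 CPM in muscle sections. Its log2 ratio was 2.86 ± 0.28 (adjusted p = 1.86e-04), above 0 in 5 of 5 horses. TNMD, or tenomodulin, had a ratio of 2.04 ± 0.33, COL1A2, a chain of type I collagen, 0.68 ± 0.13, SNAI2 0.58 ± 0.12, FBLN5 0.51 ± 0.12 and BHLHE40 0.24 ± 0.06 (adjusted p = 0.00544, 0.0110, 0.0242, 0.0322 and 0.0361). Among those below it were LOX at -1.69 ± 0.24, CCN2 at -1.05 ± 0.19, IGFBP3 at -0.82 ± 0.18 and CCN1 at -0.66 ± 0.16 (adjusted p = 0.00212, 0.00914, 0.0278 and 0.0482), lower in 5 of 5 horses except CCN1 with 4. CCN2, or connective tissue growth factor, is a widely used readout of TGF-beta signalling in cultured cells.

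Of 12 tested BMP target genes other than the ID genes, 4 were higher and 3 lower in tendon than in muscle, against 7 and 2 without TMM factors. With TMM factors these are 33.3% and 25% of the list, beside 38.8% and 34.6% of all genes. Without them, 74.2% of all genes were higher. In the MTJ, 1 was higher than in muscle and 0 lower, and 0 were called against the mixture (limma), where DLX5 and ALPL had an unadjusted p under 0.05. RUNX2, a transcription factor of bone, stood at 5.73 ± 1.96 CPM in MTJ sections, 22.7 ± 9.20 CPM in tendon sections and 2.29 ± 0.635 CPM in muscle sections (SD, n = 5 each). It changed by 3.24 ± 0.28 for tendon over muscle and 1.27 ± 0.29 for MTJ over muscle (adjusted p = 7.79e-07 and 0.0206). RUNX2 was the only call in the MTJ over muscle, and the count was 0 without horse 14, 18 or 20. DLX5, a homeobox factor of bone, had no read in muscle and was at least 60.6-fold higher in tendon against a floor of 3 counts over the muscle group, and UNC5B, a netrin receptor, changed by 2.51 ± 0.28 (adjusted p = 6.08e-06). ALPL, or alkaline phosphatase, changed by -2.82 ± 0.44, HEY2, a Notch and BMP target of vessels, by -2.50 ± 0.25 and SAMD11 by -0.90 ± 0.34, which was 0.33 without TMM factors (adjusted p = 1.00e-04, 2.51e-06 and 0.0320).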

How the data were processed

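RNA was extracted with TriReagent. Messenger RNA was selected with oligo-dT, or ribosomal RNA was depleted, and libraries were primed with random hexamers and read on a DNBseq machine, per the labels' protocols. The authors deposited whole-number read counts per gene, not normalized, with symbols and chromosomes, per the file headers. Build EquCab3.0 and DESeq2 1.26.0 come from the submitters' processing notes. Which aligner, counting program and strand setting were used is not given in the sources used here, so genes that overlap may share reads. A second table, deposited by the authors, gives log2 changes of the MTJ against a prediction, with an FDR, a p-value adjusted over genes. The authors also deposited muscle and tendon reference genes with log2 changes and adjusted p-values, of which 217 and 322 were used. In all, 15 columns of normalized values of the same libraries and 1 column headed Length were not used.

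Of 30297 genes, edgeR's filter on low counts left 15343 and removed 14954. Counts were tested with edgeR 4.0.16 (R 4.3.3) by quasi-likelihood on all 15 libraries, with tissue and horse as terms, TMM factors and Benjamini-Hochberg adjustment over all genes tested. For the mixture, a horse's shares were the median ratios of MTJ to muscle or tendon CPM over the reference genes, 0.5 CPM was added to both sides, and the 5 log2 ratios per gene were tested with limma 3.58.1. Scripts were tested on simulated data. Horse numbers mark the animal and come from the labels. After removing tissue means, the 15 pairs of libraries from 1 horse correlated at 0.150 to 0.589. Pairs that differed in both horse and tissue correlated at -0.330 to 0.160. Horse is a block in the main tests. No 2 libraries were identical (0 pairs), and the lowest chi-square per gene within a tissue was 16.9. The members and lists were chosen with earlier results of these data known. Genes with values per section are the 4 called with the largest change in each direction in tendon and in MTJ against muscle, those called against the mixture, and those compared within a role, with a mean of at least 1 CPM. From other lists, the 3 largest changes in each direction in tendon against muscle and those called against the mixture are named, except 1 gene that is not reported here. Alternatives were DESeq2 1.42.0, other scalings, no filter, no block, leaving out libraries, other pseudocounts and reference genes, and jointly solved shares. Counting error limits the genes of few reads, and the single floor of 3 counts covers counting error only. Sequences and promoters were not used here.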

Additional observations from a re-analysis of the deposited data

Results flagged for a closer look

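In 6 of 147 groups of 5 sections (49 genes in 3 tissues), 1 section stood apart from the other four by more of the range than Dixon's 95% critical value of 0.71 for 5 samples, where chance flags about 1 in 20 groups. TGFB3 stood at 24.6 CPM in the muscle section of horse 18, above the other muscle sections. TGFBR2 stood at 188.6 CPM in the tendon section of horse 17. BMP4 stood at 23.2 CPM in the MTJ section of horse 18. SMAD1 stood at 50.5 CPM in the tendon section of horse 17 and at 22.7 CPM in the muscle section of the same horse. CHRDL1 stood at 130.7 CPM in the tendon section of horse 18. All 6 were the highest of their group.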

How the results depend on the processing

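The counts of called genes kept within 1.5 times of their value with DESeq2 and with DESeq2's size factors in edgeR. Pseudocounts of 0.1 and 2 CPM and other reference genes again gave 6 genes above and 1 below the mixture. Without TMM factors the median of all genes shifted by 1.24 for tendon over muscle, 0.23 for MTJ over muscle and -1.01 for MTJ over tendon on the log2 scale. The counts were then 46 higher and 0 lower in tendon than in muscle and 21 higher in the MTJ than in muscle. For MTJ against tendon they were 1 higher and 45 lower. Of all 15343 genes, 74.2% were then higher in tendon than in muscle and 15.3% higher in the MTJ than in muscle. For MTJ against tendon, 12.8% of all genes were higher and 10842 genes were lower. Among called differences, the direction of 5 reversed under that scaling: tendon over muscle for ACVR1B (0.18) and TGIF1 (0.55), and MTJ over tendon for ACVR1B (-0.23), SMAD9 (-0.36) and TGIF1 (-0.46). Of differences that were not called, 2 reversed in tendon over muscle (TGFB2 1.09 and SMAD9 1.08), 8 in MTJ over muscle and 4 in MTJ over tendon (TGFB2 -0.68, BMP4 -0.84, BMP5 -0.89 and ACVR2A -0.98). With only the 10 MTJ and muscle libraries, 16 genes were higher in the MTJ, among 45 tested. Of all 13564 genes tested there, 1479 (10.9%) were higher and 1381 lower. Called there but not in the main test were TGFB3, TGFBR3, BMP4, BMP5, SMAD9 and LTBP1. Without a filter on low counts 0 genes were above or below the mixture, over 26156 genes tested. With jointly solved shares 0 were below the mixture and 9 above.

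Without horse as a replicate block, tendon against muscle gave 32 higher and 4 lower genes and MTJ against muscle 8 higher. MTJ against tendon gave 4 higher and 27 lower. Of all 15343 genes, 5521, 654 and 4584 were then higher in these comparisons and 4974, 13 and 4727 lower. Leaving out each horse in turn gave 31 to 35 higher and 4 lower in tendon than in muscle, 7 to 10 higher in the MTJ than in muscle, 3 to 5 higher and 28 to 33 lower for MTJ against tendon, and 3 to 8 above and 0 to 1 below the mixture; the value of 3 in MTJ over tendon came without horse 17 and without horse 20, and that of 3 above the mixture without horse 20. With the tendon sections of horses 14, 16 and 17 left out, the counts were 30 higher and 5 lower, 13 higher, and 7 higher and 27 lower. Of all 16224 genes tested there, 5285 (32.6%) were higher and 5082 lower, and 1185 (7.30%) higher and 456 lower. For MTJ against tendon, 4822 (29.7%) were higher and 4397 lower. The cause of these changes was not tested.

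Depth limits the genes of few reads, among them TGFB1, BMP7 and GDF6, whose lack of a call is no sign of equal levels, and SMAD6 and GREM1, whose fitted changes rest on sections with no read.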

Other observations

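The sections of horse 17 held the highest level within their tissue for many of the 49 genes. This was so for 20 of 49 (40.8%) in the MTJ, 21 of 49 (42.9%) in tendon and 18 of 49 (36.7%) in muscle, while horse 17 was highest for 19.3%, 23.6% and 22.4% of all genes tested. Horse 18 was highest for 17 of 49 (34.7%) in the MTJ, where it was highest for 21.1% of all genes. Horse 14 was highest for 4 of 49 in each of the 3 tissues. These shares were counted after the values were seen, and no test was made.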
